A study of Mus musculus with 6 samples.

Results

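The genes described here encode the enzymes that break down stored fat inside the adipocyte, together with the proteins that hold those enzymes back. They were the rows of the deposited gene count table with the symbols Pnpla2, Lipe, Mgll, Abhd5, G0s2, Hilpda, Pnpla3, Ces1d and Ces1f, 9 of 52550 genes. RNA from the inguinal white fat (iWAT) of C57BL/6 mice, a depot under the skin, was sequenced in 6 libraries. For 3 of them, here called A2B1 1 to 3, an AAV (adeno-associated virus) with the mouse Hnrnpa2b1 CDS, the coding part of the gene for an RNA-binding protein, had been put into the fat. For the other 3, here called control 1 to 3, the AAV expressed a scrambled control, which the series' design text also names AAV GFP. Fat of both groups had therefore received a virus. The sources used here do not give the vector's promoter, the time since injection, or the age and sex of the mice. Whether each library stands for its own animal is also not stated, and the p-values below reflect only how far these libraries spread, which may be technical.

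In an adipocyte, triglyceride is held in a lipid droplet and is broken down in steps. Adipose triglyceride lipase, encoded by Pnpla2, removes the first fatty acid, hormone-sensitive lipase, encoded by Lipe, acts mainly on the diacylglycerol that is left, and monoacylglycerol lipase, encoded by Mgll, releases the last fatty acid and glycerol. Abhd5 (CGI-58) is the coactivator of the first enzyme, while G0s2 and Hilpda bind to it and inhibit it. Pnpla3 is a close relative of Pnpla2 whose protein sits on lipid droplets and can take Abhd5 away from it. Ces1d and Ces1f are carboxylesterases with triglyceride hydrolase activity, known from liver and fat.

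Hilpda was the 1 member that passed the test between groups, so the sequence before its start sites is shown first, with that of the lipase gene Pnpla2 and of the other inhibitor gene, G0s2. Hilpda is known as a target of the hypoxia-inducible factors, whose binding site has the core ACGTG or GCGTG. Both cores were searched on both strands, and the capitals below mark matches on either strand. The sequences are RefSeq's, on GRCm38.p6, each 5′ to 3′ on the gene's strand. They cover chr6:29272238-29272487 (plus strand) before the first Hilpda start, chr6:29272596-29272625 (plus strand) before the second Hilpda start, chr7:141454938-141455187 (plus strand) before Pnpla2 and chr1:193273218-193273438 (minus strand) before G0s2.
Hilpda, first start: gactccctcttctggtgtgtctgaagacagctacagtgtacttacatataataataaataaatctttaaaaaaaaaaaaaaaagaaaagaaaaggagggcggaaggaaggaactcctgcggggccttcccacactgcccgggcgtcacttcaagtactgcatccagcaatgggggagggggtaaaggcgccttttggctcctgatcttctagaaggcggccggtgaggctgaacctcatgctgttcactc
Hilpda, second start: cgagctcgtgcaggttcggtacGCGTGcgc
Pnpla2: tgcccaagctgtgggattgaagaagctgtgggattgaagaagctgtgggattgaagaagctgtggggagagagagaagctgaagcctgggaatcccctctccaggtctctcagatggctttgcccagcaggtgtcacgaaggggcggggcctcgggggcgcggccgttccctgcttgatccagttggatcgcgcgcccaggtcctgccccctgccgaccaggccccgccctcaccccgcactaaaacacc
G0s2: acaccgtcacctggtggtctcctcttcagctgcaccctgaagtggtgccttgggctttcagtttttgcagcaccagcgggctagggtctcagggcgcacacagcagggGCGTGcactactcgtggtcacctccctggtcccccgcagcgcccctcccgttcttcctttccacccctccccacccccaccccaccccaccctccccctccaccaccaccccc

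The 250 bases before the second Hilpda start held 3 matches, beginning 111, 43 and 8 bases upstream of it. The first and the second of these lie in the first exon that GENCODE M21 gives for transcripts from the upstream start, and only the last 30 bases are shown. The 250 bases before the first start held 0. At least 3 matches were found in 6.58% and at least 1 in 38.6% of the 32851 windows of 250 bases in the RefSeq promoter table. Among the 7 members with windows there (10 windows in all), Mgll had 4 and 7 matches, Lipe 0 and 3, Pnpla3 2, Abhd5 1, G0s2 1 and Pnpla2 0. A CACGTG stretch reads as ACGTG on both strands and was counted as 2 matches. Ces1d and Ces1f were not in that table. A match describes the letters of the window and is not a binding site.

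The libraries held 72961324 to 86663359 counts each, and the 9 members together took 0.702% to 0.982% of them. Hnrnpa2b1, the delivered gene, had 766 ± 20.6 CPM (read count scaled to library size with TMM factors; SD, n = 3) in A2B1 libraries and 562 ± 40.1 in controls, without overlap. Its log2 fold change was 0.45 (SE 0.09), and edgeR's quasi-likelihood test put the adjusted p at 0.0654. Gene counts do not tell viral from mouse transcripts. All 10 white adipocyte markers were detected, with summed levels of 51426 to 53149 CPM in A2B1 libraries and 43886 to 52557 in controls. The samples are labelled adipocytes, but genes of other cells were present, so the RNA is not that of adipocytes alone. Macrophage markers (8 of 8 detected) summed to 252 to 563 CPM in A2B1 libraries and 603 to 940.0 in controls, and lymphocyte markers reached 254 CPM in control 1 against 5.89 to 37.4 in the other libraries. Of 8 hepatocyte markers, 0 were at 0 counts in every library. Their sum was 12604 CPM in A2B1 1, 2654 in A2B1 3, 1447 in A2B1 2 and 822 to 1326 in controls. Cyp2e1 had the highest mean of these markers over the libraries, 1300 CPM. With A2B1 2 as the lone A2B1 library, 1 of the 8 markers had a log2 fold change above 0, and their median was -0.72. Albumin, Alb, the main secreted protein of liver, stood at 6238, 67.1 and 808 CPM in A2B1 1 to 3 and at 102, 86.7 and 153 in control 1 to 3. In A2B1 1, Alb thus made up 6238 of the 12604 CPM in the hepatocyte marker sum. A2B1 1 lay at one end of the first principal component (-75.5) and control 1 at the other (43.2).

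Between the groups, Hilpda fell, with a control level 2.77 times that of A2B1 libraries, and the other 8 members did not pass the threshold in edgeR. Pnpla3, Abhd5 and Pnpla2 had fitted levels 1.41, 1.40 and 1.31 times those of controls. The 95% intervals of Lipe, Mgll, G0s2, Ces1d and Ces1f included no change. All 9 members passed the filter on low counts and were tested. Under an adjusted p of 0.05 (Benjamini-Hochberg over 19146 tested genes), 1 member was lower and 0 were higher, where 1.82% of all tested genes were called, 1.33% lower and 0.496% higher. At an unadjusted p under 0.05, 4 members passed (24.2% of all genes did), and 3 had groups that did not overlap (30.6% of all genes). DESeq2 called Hilpda lower and Pnpla3 higher (16.2% of genes called in either direction), and limma-voom called Hilpda (2.44%). The median log2 fold change of the 9 members was 0.15, beside 0.00206 for all tested genes.

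**Figure D1:**
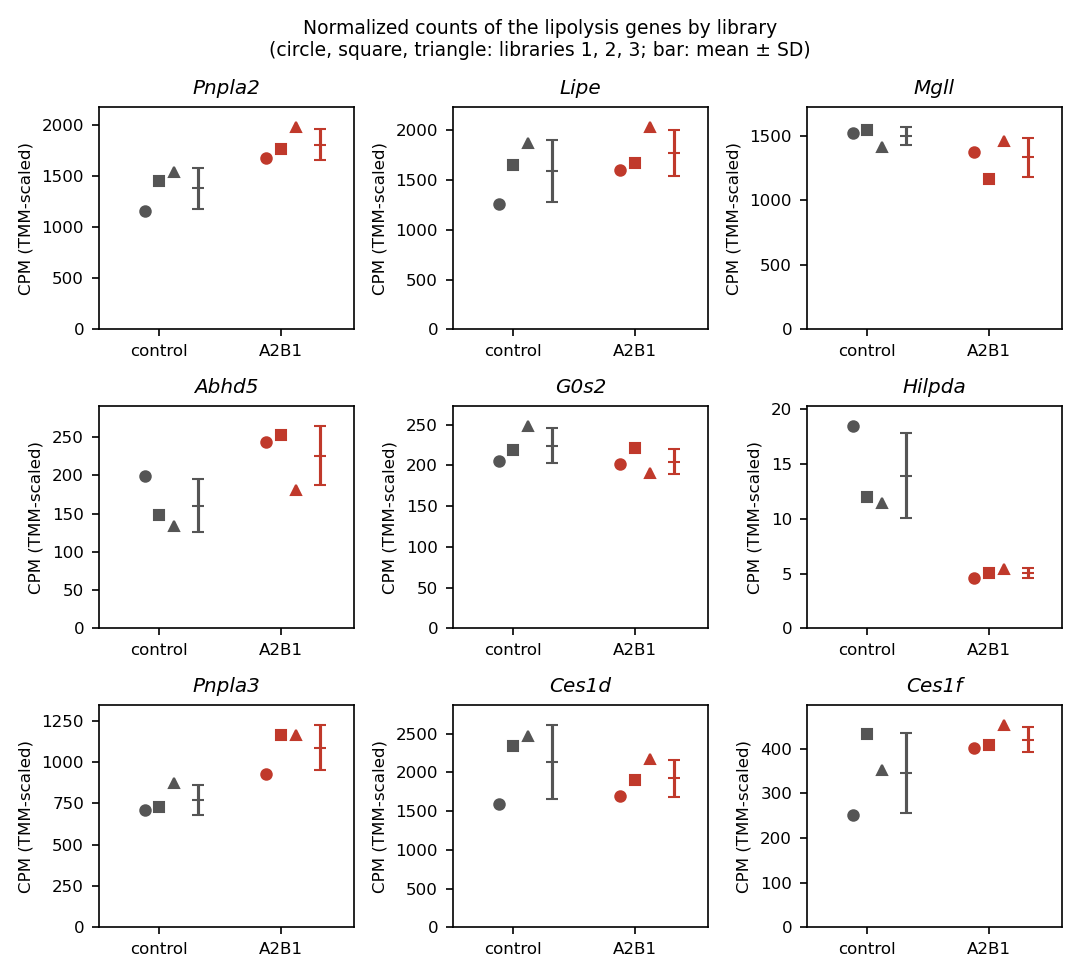
Normalized counts of the 9 genes (vertical axes, CPM, each starting at 0) in the 3 control libraries (grey) and 3 A2B1 libraries (red), with the mean and SD of each group at the right of its points. Hilpda is the gene whose groups lie farthest apart, at 4.60 to 5.47 CPM against 11.5 to 18.5.

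Hilpda (ENSMUSG00000043421, mm10 chromosome 6, 29272488 to 29275446, plus strand) encodes a small lipid droplet protein that inhibits adipose triglyceride lipase. It had 318, 402 and 407 reads in A2B1 1 to 3 and 1392, 1066 and 959 in control 1 to 3. After scaling these were 4.60, 5.06 and 5.47 CPM against 18.5, 11.96 and 11.5 CPM. Every A2B1 library lay below every control, and the A2B1 libraries were close to each other while control 1 stood above the other controls. The group means were 5.04 ± 0.434 and 14.0 ± 3.91 CPM (SD, n = 3 each). The fitted ratio of control to A2B1 was 2.77 (95% interval 1.93 to 3.97). On the log2 scale Hilpda changed by -1.47 (SE 0.22), and edgeR's quasi-likelihood test gave it an adjusted p of 0.0375. Adjusted p was 7.82e-08 in DESeq2 and 0.0373 in limma-voom, and p = 0.1 in an exact two-sided permutation test, which with 3 against 3 cannot go lower. In bulk tissue, fewer cells that make Hilpda and less Hilpda RNA per cell cannot be told apart.

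The call of Hilpda needed all 6 libraries. Leaving out any 1 of them kept the log2 fold change between -1.59 and -1.21 but gave adjusted p-values of 0.0547 to 0.127 in edgeR, in fits that called 10 to 57 genes in all. Without control 1, the library with the highest Hilpda level and the highest lymphocyte and macrophage marker sums, the log2 fold change was -1.21 (adjusted p = 0.0547). Macrophage marker sums were lower in every A2B1 library than in every control, as Hilpda was. The nearest libraries across the groups in that sum, A2B1 2 at 563 CPM and control 3 at 603 CPM, had Hilpda at 5.06 and 11.5 CPM. The part of macrophages in the difference was not tested.

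G0s2 (ENSMUSG00000009633, chromosome 1, 193272161 to 193273217, minus strand), the other inhibitor of the same lipase and a gene abundant in mature adipocytes, did not separate the groups. It had 202, 221 and 190.3 CPM in A2B1 1 to 3 and 205, 219 and 248 in control 1 to 3. The ranges overlapped, and control 3 was the highest library. The log2 fold change was -0.13 (95% interval -0.38 to 0.12; adjusted p = 0.473 in edgeR). With A2B1 2 as the lone A2B1 library it was 0.000337, so its sign depended on the libraries used.

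Pnpla2 (ENSMUSG00000025509, chromosome 7, 141455198 to 141460743, plus strand), the lipase that both inhibitors act on, had 1674, 1765 and 1976 CPM in A2B1 1 to 3. The controls stood at 1154, 1446 and 1537 CPM. All A2B1 libraries were above all controls, with control 1, the library highest in lymphocyte markers, the lowest. The fitted ratio was 1.31 (95% interval 1.04 to 1.65), and the adjusted p of 0.169 missed the threshold in edgeR, as did that of DESeq2 (0.0565). Without control 1 the log2 fold change went from 0.39 to 0.28.

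Abhd5 (ENSMUSG00000032540, chromosome 9, 122351608 to 122381524, plus strand), the coactivator of this lipase, had 243, 252 and 181 CPM in A2B1 1 to 3 and 199, 148 and 134 in control 1 to 3. The groups overlapped, since A2B1 3 lay below control 1. Its log2 fold change was 0.49 (SE 0.19; adjusted p = 0.191 in edgeR and 0.0975 in DESeq2), and it ranged from 0.38 to 0.68 when 1 library was left out. Its exons share 950 bases with the antisense gene A730085K08Rik. Whether counting used strand is unknown, so reads of the 2 genes cannot be told apart.

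Lipe (ENSMUSG00000003123, chromosome 7, 25379527 to 25398710, minus strand), hormone-sensitive lipase, had 1597, 1672 and 2028 CPM in A2B1 1 to 3 and 1259, 1645 and 1870.3 in control 1 to 3. Its groups overlapped, with A2B1 1 and A2B1 2 inside the control range. The log2 fold change was 0.15 (95% interval -0.27 to 0.57; adjusted p = 0.632 in edgeR), and without control 1 it was 0.01. The antisense gene 4732471J01Rik covers 918 bases of its exons, which makes the count uncertain in the same way.

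Mgll (ENSMUSG00000033174, chromosome 6, 88724412 to 88828360, plus strand), which completes the breakdown and also degrades the endocannabinoid 2-arachidonoylglycerol, had 1378, 1165 and 1460.1 CPM in A2B1 1 to 3. Control 1 to 3 had 1523, 1549 and 1416 CPM. A2B1 3 lay above control 3, so the groups overlapped. The log2 fold change was -0.16 (95% interval -0.44 to 0.11; adjusted p = 0.412 in edgeR). Only 167 bases of its exons overlap an antisense gene, Gm26588.

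Pnpla3 (ENSMUSG00000041653, chromosome 15, 84167837 to 84187236, plus strand) had 931, 1166 and 1166 CPM in A2B1 1 to 3 and 711, 731 and 875 in control 1 to 3. The groups did not overlap, the nearest libraries being A2B1 1 and control 3. Its fitted ratio was 1.41 (95% interval 1.12 to 1.77), and its adjusted p was 0.114 by edgeR, 0.012 by DESeq2 and 0.0908 by limma-voom. Liver also makes Pnpla3, and A2B1 1, the library with most hepatocyte marker RNA, had the lowest level of the A2B1 group. Without that library the log2 fold change was 0.61, against 0.49 with all 6; the part of liver RNA in the difference was not tested. Its exons share 105 bases with Gm49513 on the same strand.

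Ces1d (ENSMUSG00000056973, chromosome 8, 93166068 to 93197838, minus strand) and Ces1f (ENSMUSG00000031725, chromosome 8, 93256236 to 93279747, minus strand) lie in a cluster of carboxylesterase genes, with Ces1e between them. Ces1d had 1696, 1906 and 2173 CPM in A2B1 1 to 3 and 1586, 2333 and 2473 in control 1 to 3. Ces1f had 401, 408 and 453 CPM against 252, 432 and 352. Both overlapped between groups, and control 1 was the lowest library for each. Their log2 fold changes were -0.15 (95% interval -0.61 to 0.32) and 0.28 (95% interval -0.19 to 0.75), with adjusted p-values of 0.674 and 0.410 in edgeR's quasi-likelihood test. Of the distinct stretches of 50 bases in their transcripts, 1.08% for Ces1d and 0.903% for Ces1f occur in transcripts of other genes, among them other Ces1 genes.

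**Figure D2:**
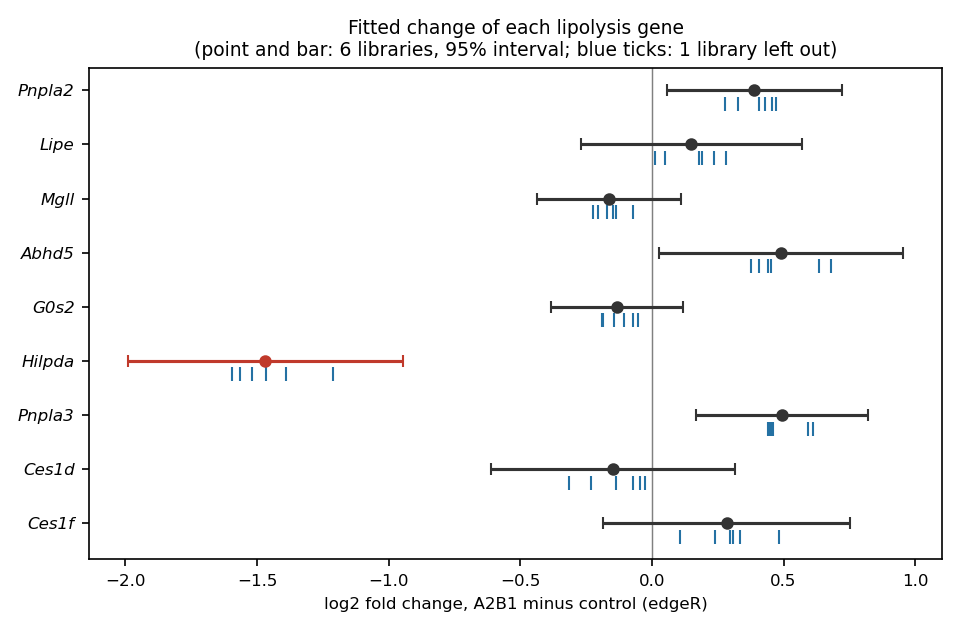
Log2 fold change of each member, A2B1 minus control (horizontal axis), with its 95% interval from the edgeR fit of all 6 libraries; blue ticks show the 6 fits without 1 library. Hilpda, in red, lies at -1.47 and is the only gene past the adjusted threshold, and all ticks of a gene stay on the side of 0 of its main value.

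Other carboxylesterases differed far more between A2B1 libraries than Ces1d and Ces1f did. Ces1c, a plasma esterase made by liver, had 297, 2.20 and 35.7 CPM in A2B1 1 to 3 and 2.51 to 5.34 in controls. Ces3a, another of these carboxylesterases, had 411, 2.85 and 47.2 CPM against 2.59 to 5.66. A2B1 1 and A2B1 3 were high for both genes and A2B1 2 was within or below the control range, the order in which albumin stood. Of the 17 other family members 12 were tested. In edgeR 0 passed (1.82% of all tested genes did) and 7 had an unadjusted p under 0.05 (24.2%). DESeq2 called 8 higher and 0 lower (16.2% of all genes in either direction). Their median log2 fold change of 3.89 fell to 1.75 without A2B1 1 and to -0.75 with A2B1 2 as the lone A2B1 library. The part of liver RNA in these values was not tested. Under those settings Ces1d moved from -0.15 to -0.05 and -0.14 and Ces1f from 0.28 to 0.34 and 0.26.

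**Figure D3:**
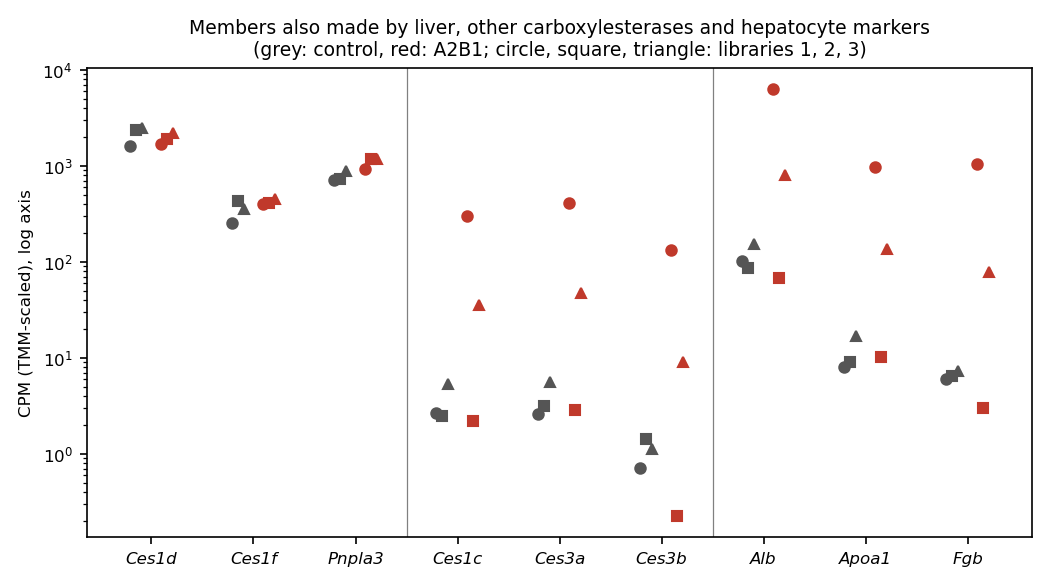
CPM (log axis) per library of 3 members that liver also makes, of 3 other carboxylesterases and of 3 hepatocyte markers; Ces3b, Apoa1 and Fgb were added for display after their values were seen. A2B1 1 (red circle) and A2B1 3 (red triangle) stand above the controls for the other carboxylesterases and for Alb, Apoa1 and Fgb, while for Ces1d, Ces1f and Pnpla3 A2B1 1 is the lowest of the A2B1 libraries.

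To compare levels between genes, CPM was divided by the exon length in GENCODE M21 in kilobases (RPKM). Over the 6 libraries the order was Ces1d at 856 ± 150.2 RPKM, Pnpla3 at 601 ± 129.9, Pnpla2 at 527 ± 93.7, Lipe at 285 ± 44.5, Mgll at 279 ± 27.2, G0s2 at 246 ± 23.0, Ces1f at 117 ± 22.1, Abhd5 at 32.4 ± 8.11 and Hilpda at 8.62 ± 4.97 (SD, n = 6). The triglyceride lipase was thus present at many times the length-scaled RNA level of its coactivator, and G0s2 at many times that of Hilpda. The ranges over libraries of Ces1d and Pnpla3, of Pnpla3 and Pnpla2, of Lipe and Mgll, and of Mgll and G0s2 overlapped. Within a library, Ces1d was above Pnpla3 in 6 of 6, Pnpla3 above Pnpla2 in 5, Mgll above G0s2 in 4 and Lipe above Mgll in 3. Pnpla2 and Lipe, G0s2 and Ces1f, Ces1f and Abhd5, and Abhd5 and Hilpda kept their order in 6 of 6 libraries without overlap. The values depend on the annotated length, which is 1548 bases for Pnpla3.

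Ratios of read counts within a library do not depend on the scaling between libraries, and 6 were compared. The count of Pnpla2 over that of Hilpda was 364, 349 and 361 in A2B1 1 to 3 and 62.5, 121 and 134 in control 1 to 3. It was thus nearly equal in the A2B1 libraries and spread in the controls, with a log2 difference of 1.83. Pnpla2 over G0s2 was 8.29, 7.99 and 10.4 in A2B1 libraries and 5.62, 6.60 and 6.20 in controls, a log2 difference of 0.53. Lipe over Pnpla2 was 0.954, 0.947 and 1.03 against 1.09, 1.14 and 1.22, a log2 difference of -0.23. These 3 ratios separated the groups completely. Each had p = 0.1 in an exact two-sided permutation test, the smallest that this design allows, or 0.2 adjusted over the 6 ratios. All 3 hold Pnpla2, whose CPM alone did not overlap between groups, nor did that of Hilpda. Among single genes 30.6% did not overlap, and the share among all gene pairs was not computed. The ratios were chosen with earlier results of these data known. The ratio of Abhd5 to G0s2 had a log2 difference of 0.63 and that of Mgll to Lipe one of -0.33, both with overlapping groups and an exact p of 0.2 (0.24 adjusted). Pnpla2 over Abhd5 differed by -0.10 (exact p = 0.9), with a sign that turned when A2B1 1, A2B1 2 or control 3 was left out.

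**Figure D4:**
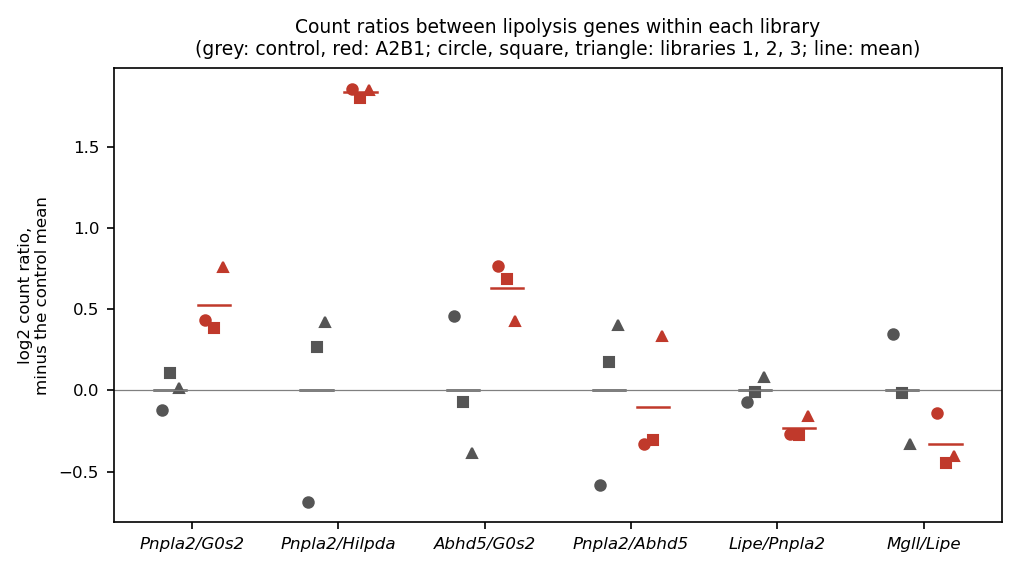
Log2 ratio of read counts of 2 genes in each library, minus the control mean of that ratio (vertical axis), for the 6 ratios; lines mark group means. The A2B1 libraries (red) lie apart from the controls (grey) for Pnpla2/G0s2, Pnpla2/Hilpda and Lipe/Pnpla2 and overlap them for the other ratios.

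Among the members, Pnpla2 and Pnpla3 had the nearest profiles, and Hilpda lay farthest from the others. Profiles were not scaled for spread, so a gene that varied more lay farther away. The SD of log2 CPM was 0.82 for Hilpda and 0.13 to 0.37 for the other members. The root mean square distance between centred log2 CPM profiles over the 6 libraries was 0.12 between Pnpla2 and Pnpla3, 0.13 between Pnpla2 and Lipe, 0.15 between Pnpla2 and Ces1f and 0.16 between Lipe and Ces1d. Hilpda lay at 0.67 to 1.01 from every other member, and Abhd5 at 0.33 to 0.54 from members other than Hilpda. By the same measure, the genes nearest to Hilpda among 12976 others were Ptger3, a prostaglandin E2 receptor that inhibits lipolysis, at 0.11, and Slc13a4, a sulfate transporter, at 0.12. Nearest to Pnpla2 were Chrd at 0.02 and Zbtb44 at 0.02, and nearest to G0s2 Heph and Ndn at 0.03. Mgll was nearest to Atp6v1f and Psmf1 at 0.04, Abhd5 to Gm26825 and Utp14b at 0.11, and Pnpla3 to Ift81 at 0.04 and Zbtb7a at 0.05. Ces1d was nearest to Smarca2 at 0.03 and Card10 at 0.05. With 6 libraries and this many genes, such distances describe likeness in these libraries only.

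Genes of neighbouring steps were read in the same fits, in lists chosen with earlier results of these data known. Of all tested genes, edgeR called 1.82% in either direction. Among 5 tested relatives in the patatin-like family, Pnpla8, a calcium-independent phospholipase of mitochondria and peroxisomes, rose: controls had 137 ± 14.5 CPM and A2B1 libraries 218 ± 14.6 (SD, n = 3). Its log2 fold change was 0.67 (SE 0.11; adjusted p = 0.0408, edgeR). The other 4 relatives did not pass, and the median was 0.25. Of 19 other intracellular hydrolases of acylglycerols and esters, edgeR called 0 higher and 1 lower. In edgeR 9 had an unadjusted p under 0.05, as did 24.2% of all tested genes. DESeq2 called 3 higher and 3 lower (16.2% of all genes in either direction), and limma-voom called 1 (2.44%). The gene that fell in edgeR was Abhd2, a serine hydrolase with monoacylglycerol lipase activity, which went from 83.3 ± 7.77 to 53.4 ± 3.01 CPM (log2 fold change -0.64, adjusted p = 0.0375). The median of these 19 was 0.04.

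Among 24 proteins of the droplet surface and carriers that act with the lipases, 2 rose and 1 fell in edgeR (5 and 2 in DESeq2). Of all genes, edgeR called 1.82% and DESeq2 16.2% in either direction. Plin5, which binds Pnpla2 and Abhd5 on droplets of oxidative tissues, rose from 10.8 ± 2.30 to 35.3 ± 12.8 CPM (log2 fold change 1.70, adjusted p = 0.0497), and Cidea, a droplet protein of thermogenic fat, rose by 2.16 on the log2 scale (adjusted p = 0.0248). Cidec, which fuses droplets in white fat, fell from 2579 ± 218 to 1681 ± 107 CPM (log2 fold change -0.62, adjusted p = 0.0497). The other 21 did not pass, and the median was 0.01. Markers of brown or beige adipocytes, 8 in all with Cidea among them, summed to 167 to 265 CPM in A2B1 libraries and 69.9 to 89.4 in controls, and their part in these differences was not tested. Plin5 and Cidec passed in 3 and 4 of 7 other fits in edgeR, DESeq2 and limma-voom. All adjusted p-values in this paragraph are from edgeR's quasi-likelihood test.

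In the hormonal control of lipolysis, edgeR called 2 of 33 genes higher and 3 lower, and 28 did not pass (median 0.06). Of all tested genes, edgeR called 1.82% in either direction. Adrb3, the beta-3 adrenergic receptor that starts the cascade in mouse adipocytes, had 598, 591 and 398 CPM in A2B1 1 to 3 and 138, 169 and 178 in control 1 to 3 (log2 fold change 1.71, adjusted p = 0.0248 in edgeR). Irs1, an insulin receptor substrate on the antilipolytic side, rose by 0.81 (adjusted p = 0.0235). The clearance receptor for natriuretic peptides, Npr3, fell from 1832 ± 203 to 733 ± 121 CPM (log2 fold change -1.32, adjusted p = 0.0248). Ptger3, an inhibitory receptor, had 40.1, 41.3 and 37.6 CPM against 143, 88.4 and 84.2, highest in control 1 as Hilpda was (log2 fold change -1.41, adjusted p = 0.0402). Gnai2, an inhibitory G protein subunit, fell by 0.44 on the log2 scale (adjusted p = 0.0497) and passed in 4 of 7 other fits. Of the receptors that passed, Adrb3 thus rose, while Npr3 and Ptger3 fell. Pde3b, a phosphodiesterase through which insulin restrains lipolysis, named here after its values were seen, had a log2 fold change of 0.67 and missed the threshold in edgeR (adjusted p = 0.0591) but passed by DESeq2 (8.22e-05) and by limma-voom (0.0439). DESeq2 called 6 genes of the list higher and 4 lower, where it called 16.2% of all genes in either direction.

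Of 18 transcription factors reported to regulate lipase or inhibitor genes, 1 rose in edgeR (2 in DESeq2). This was Srebf1, a regulator of lipid synthesis, by 0.77 (adjusted p = 0.0375 in edgeR), and the median was 0.13. For this list and the next, the shares of all genes called in either direction were 1.82% in edgeR and 16.2% in DESeq2. The hypoxia-inducible list, to which Hilpda is related but in which it was not counted, was split. Vegfa, the angiogenic growth factor, rose by 0.62 (adjusted p = 0.0335) and Pfkfb4, a regulator of glycolysis, fell from 24.5 ± 2.60 to 9.70 ± 2.91 CPM (log2 fold change -1.34, adjusted p = 0.0452), while the other 20 of 22 did not pass in edgeR (DESeq2 called 2 higher and 4 lower). Its median was -0.05, with 10 of 22 genes above 0. Exons of Adrb3, Npr3, Irs1, Srebf1 and Pnpla8 overlap genes on the other strand, and those of Srebf1 also a microRNA gene on its own strand, so these counts are uncertain. Of the 13 genes called in these lists, Cidea, Adrb3 and Ptger3 each passed in 1 of the 6 fits without 1 library and the other 10 in 0.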

How the data were processed

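Frozen fat was extracted with Trizol and sequenced from TruSeq libraries, per the labels' protocols. Per the submitters' processing notes, Bowtie and the build mm10 were used; no source used here gives the counting program, annotation or strand setting. The authors deposited raw counts for 52550 genes and 6 libraries, with 0 columns of other samples. The counts are whole numbers but may be rounded estimates, so genes with overlapping exons are uncertain. Counts were fitted in R 4.3.3 with edgeR 4.0.16 (TMM factors, robust quasi-likelihood F test, group as the only term, two-sided) on the 19146 genes kept by filterByExpr (at least 10 counts in enough libraries, 15 in total), which held at least 99.9% of each library. Adjusted p is Benjamini-Hochberg over these genes. SE is the log2 fold change divided by the square root of F. The common biological coefficient of variation was 33.6%; the lowest member count, 318 reads of Hilpda, has a counting error of 5.61%, which covers counting only. Alternatives were other scalings and filters, DESeq2 1.42.0, limma-voom (limma 3.58.1) with sample quality weights, an adjusted p of 0.1, 1 count added to ratios, and libraries left out. Coordinates and exon lengths are from GENCODE M21 (mm10). The fit was also run on counts simulated from its own fitted dispersions, and the outcome is not reported here. Where a symbol was repeated, the ID with most counts was used. Members, lists and ratios were chosen with earlier results of these data known. Named were all members, Hnrnpa2b1, up to 6 called genes of each list (where there were none, the 2 lowest in p) and, for a member, the 2 genes with the nearest profile and mean log2 CPM of at least 1. The nearest profiles of Lipe and Ces1f are not reported here. Splicing was not analysed here.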

Additional observations from a re-analysis of the deposited data

How the results depend on the processing

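Hilpda was called lower in all 7 other fits of the 6 libraries (other scalings, filters and tools), with adjusted p-values from 7.82e-08 to 0.0388. The count of members called lower was 0 in each of the 6 fits without 1 library, and 0 without both A2B1 1 and control 1 or without both A2B1 1 and A2B1 3, settings chosen after seeing the data; those fits have fewer samples. With A2B1 2 as the lone A2B1 library, assumed to vary like the controls, Hilpda had a log2 fold change of -1.44 and G0s2 turned to 0.000337. The count of members called higher was 0 except in the DESeq2 test, which called 1, Pnpla3. Of all genes, 349 were called in edgeR and 2919 in DESeq2; the 13 calls in the lists became 8 with library totals, 40 in DESeq2, 21 at an adjusted p of 0.1, 0 to 2 without 1 library, and 0 in both settings without a pair of libraries. Hnrnpa2b1 passed in DESeq2 (0.45, adjusted p = 0.000113) and at an adjusted p under 0.1 (0.45, adjusted p = 0.0654), and without 1 library ranged from 0.41 to 0.50. Without 1 library the log2 difference of Pnpla2 over Abhd5 ranged from -0.39 to 0.10, being 0.01 without A2B1 1, 0.0013 without A2B1 2 and 0.10 without control 3; the cause was not tested. The other ratios kept their sign in these settings. No paired analysis was possible because the numbers in the titles of the groups do not overlap.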
